A study of Homo sapiens with 90 samples.

Results

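MMP1, MMP9, MMP10, MMP14, PLAU, PLAUR, SERPINB2, HAS2 and CEMIP are 9 genes whose products cut the matrix around cells, switch on plasmin, or make and break down hyaluronan. Each was matched by symbol to 1 of the 53893 gene identifiers of a table of expected counts. The set was chosen by symbol with the difference in CPM between the targeted drug at 48 h and DMSO already known, so the values of that comparison are descriptions and carry no test. RNA had been sequenced from 6 established human cancer cell lines, with 15 libraries per line. Each line had 3 libraries of DMSO at 0.1%, of a targeted drug, of THZ1 and of the combination of both drugs, all taken at 48 h, and 3 more of the targeted drug taken at 7 days. No vehicle library of 7 days was analysed here. A375 (melanoma) was treated with the BRAF inhibitor vemurafenib at 1 uM and THZ1 at 50 nM. A549 (lung) was treated with the MEK inhibitor GSK1120212, also known as trametinib, at 200 nM and THZ1 at 150 nM. H3122 (lung) was treated with the ALK and MET inhibitor crizotinib at 250 nM and THZ1 at 50 nM. N87 (gastric) was treated with the EGFR and HER2 inhibitor lapatinib at 100 nM and THZ1 at 25 nM. PC9 (lung) was treated with the EGFR inhibitor erlotinib at 1 uM and THZ1 at 100 nM. RT112 (bladder) was treated with the FGFR inhibitor BGJ398 at 1 uM and THZ1 at 100 nM. THZ1 is a covalent inhibitor of CDK7, a kinase of the transcription machinery. Lines thus differ in drug and in dose as well as in origin, and A375 was grown in another medium than the other 5 lines.

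Matrix metalloproteinases are zinc enzymes that are made as inactive precursors. MMP1 is a secreted collagenase, MMP10 a secreted stromelysin, MMP9 a secreted gelatinase, and MMP14 a membrane-bound enzyme that cuts collagen and activates other members of the family. Urokinase, the product of PLAU, turns plasminogen into plasmin while bound to its receptor, the product of PLAUR, and SERPINB2 encodes an inhibitor of urokinase. HAS2 encodes an enzyme of the plasma membrane that makes long hyaluronan chains, and CEMIP encodes a protein needed for the breakdown of hyaluronan. Several of these genes are textbook targets of AP-1 and ETS factors, which act downstream of the kinase cascade from RAS to ERK that most of these targeted drugs lower.

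Promoters are shown because AP-1 and ETS genes were measured beside the members, and those printed are the ones that hold the AP-1 letters. RefSeq start sites (GRCh38.p14) were matched for 6 of the 9 members. MMP1, MMP9 and HAS2 had no entry. The 250 bases before each start were searched on both strands for the AP-1 letters TGANTCA, found in 6.57% of 35116 promoters of that length, and for the ETS letters AGGAAG of the PEA3 site, found in 28.71%. The 2 motifs do not overlap in any window printed here. The matches stand in capitals, and each sequence is written from 5′ to 3′ along the strand of its gene.
MMP10, chr11:102780629-102780878, minus strand: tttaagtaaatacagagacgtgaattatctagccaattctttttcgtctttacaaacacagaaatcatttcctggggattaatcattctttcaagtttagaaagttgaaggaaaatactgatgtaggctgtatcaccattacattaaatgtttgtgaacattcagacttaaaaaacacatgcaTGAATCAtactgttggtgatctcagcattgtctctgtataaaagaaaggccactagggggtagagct
PLAUR, chr19:43670170-43670419, minus strand: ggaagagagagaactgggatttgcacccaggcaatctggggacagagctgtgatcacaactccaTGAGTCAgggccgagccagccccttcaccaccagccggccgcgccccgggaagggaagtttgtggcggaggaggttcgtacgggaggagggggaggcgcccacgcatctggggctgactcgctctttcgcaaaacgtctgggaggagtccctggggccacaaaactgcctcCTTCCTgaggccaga
SERPINB2, chr18:63887455-63887704, plus strand: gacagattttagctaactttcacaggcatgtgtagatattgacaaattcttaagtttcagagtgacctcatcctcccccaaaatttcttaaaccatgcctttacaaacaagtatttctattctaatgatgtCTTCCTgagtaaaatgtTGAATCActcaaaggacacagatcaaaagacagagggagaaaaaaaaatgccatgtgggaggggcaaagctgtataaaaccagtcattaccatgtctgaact
Counted from the start, the AP-1 letters lie at -67 to -61 in MMP10, at -186 to -180 in PLAUR and at -102 to -96 in SERPINB2. The PEA3 letters are on the opposite strand of PLAUR at -15 to -10 and of SERPINB2 at -119 to -114. PLAU has the PEA3 letters at -221 to -216 of the second of its 2 listed starts. Neither set of letters was in the windows of MMP14, CEMIP or the first start of PLAU. A match is a description of the letters in the window and not a binding site.

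Library totals ran from 5641054 to 14361081 expected counts with a median of 10995068. Values are given as CPM, the expected count scaled by library total and by TMM factors set within a line. Such scaling places the bulk of genes near no change, also under THZ1. Rises and falls are therefore relative to other transcripts, and a loss shared by all transcripts would not be seen. Whether replicate libraries came from separate cultures is not given in the labels, so the p-values measure only the spread between these libraries, which may be technical. In RNA from whole cultures, fewer cells that make a transcript and less transcript per cell cannot be told apart. RT112 replicate 1 differed from its partners in the 4 arms that have one. The chi-square per degree of freedom between it and its partners was 3.49 to 18.9, against 1.58 to 2.31 between the remaining libraries of those arms. H3122 replicate 1 at 7 days gave 17.6 and 23.0 against its partners. Results given without the libraries that stand apart leave out only these libraries of RT112 and H3122. Other libraries differed as well. N87 replicate 1 at 7 days gave 6.80 and 8.03, against 2.35 between its partners. PC9 DMSO replicate 4 gave 5.04 and 5.31, against 1.55 between its partners. The A375 libraries of 7 days gave 5.20 to 7.32 between each other. A375 vemurafenib replicate 4 carries the tissue label Lung in place of Skin. By the same measure it gave 1.94 against replicate 3 of that arm. Replicate 1 of the arm gave 4.63 against replicate 3 and 5.82 against replicate 4. The main results within a line that these libraries move are given with and without them. The fits with the cell line as the replicate include these libraries and were not repeated without them. Of 7 melanocyte markers, MITF, PMEL, SOX10 and S100B reached 1 CPM in A375 under DMSO. Of 6 lung markers, 3 did so in H3122 (NKX2-1, NAPSA and SFTA3) and 0 in A549 and PC9. RT112 had 5 of 6 urothelial markers at that level and N87 had 1 of 6 gastric markers, MUC5AC, while all 5 pan-epithelial markers reached it in the 5 lines other than A375. Most lists were not confined to their line. Gastric markers numbered 3 in RT112 and 2 in A549 and H3122, and urothelial markers 4 in N87 and 3 in A549 and PC9. Each of the 5 lines other than A375 had 2 melanocyte markers at that level. These counts alone do not identify a line. The library kit does not mark strand, so reads of genes whose exons overlap on opposite strands cannot be told apart. MMP9 shares 430 exonic bases with SLC12A5-AS1, which holds 355 counts over the 90 libraries beside 310 for MMP9, and its values are uncertain for that reason. CEMIP shares 224 exonic bases with MESD, which holds 71852 counts beside 39892 for CEMIP. PLAU shares 916 exonic bases with C10orf55, which holds 1660 counts beside 102332. SERPINB2 shares 547 exonic bases on its own strand with SERPINB10, which holds 68 counts beside 10796.

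The lines started from unlike levels. Per kilobase of exon, the highest member under DMSO was MMP14 in RT112 and PLAU in A549, H3122 and PC9, while CEMIP led in A375 and N87. The mean DMSO level of MMP14 in RT112 was 147 CPM per kb, and that of PLAU was 96.8 CPM per kb in H3122, 56.9 in A549 and 48.9 in PC9. The mean DMSO level of CEMIP was 51.8 CPM per kb in A375, above MMP14 at 42.4, and 45.1 in N87. PLAUR was the only member above 5 CPM per kb under DMSO in every line, from 7.33 in PC9 to 34.2 in H3122. MMP1 reached 35.1 CPM per kb in RT112 and 13.9 in H3122 and had no counts in A549 and PC9. Among the 54 pairs of a member and a line, 35 had enough counts to be tested. The 19 that did not pass the filter on low counts include MMP9 in the 5 lines other than RT112, and HAS2 in the 4 lines other than H3122 and N87.

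**Figure D1:**
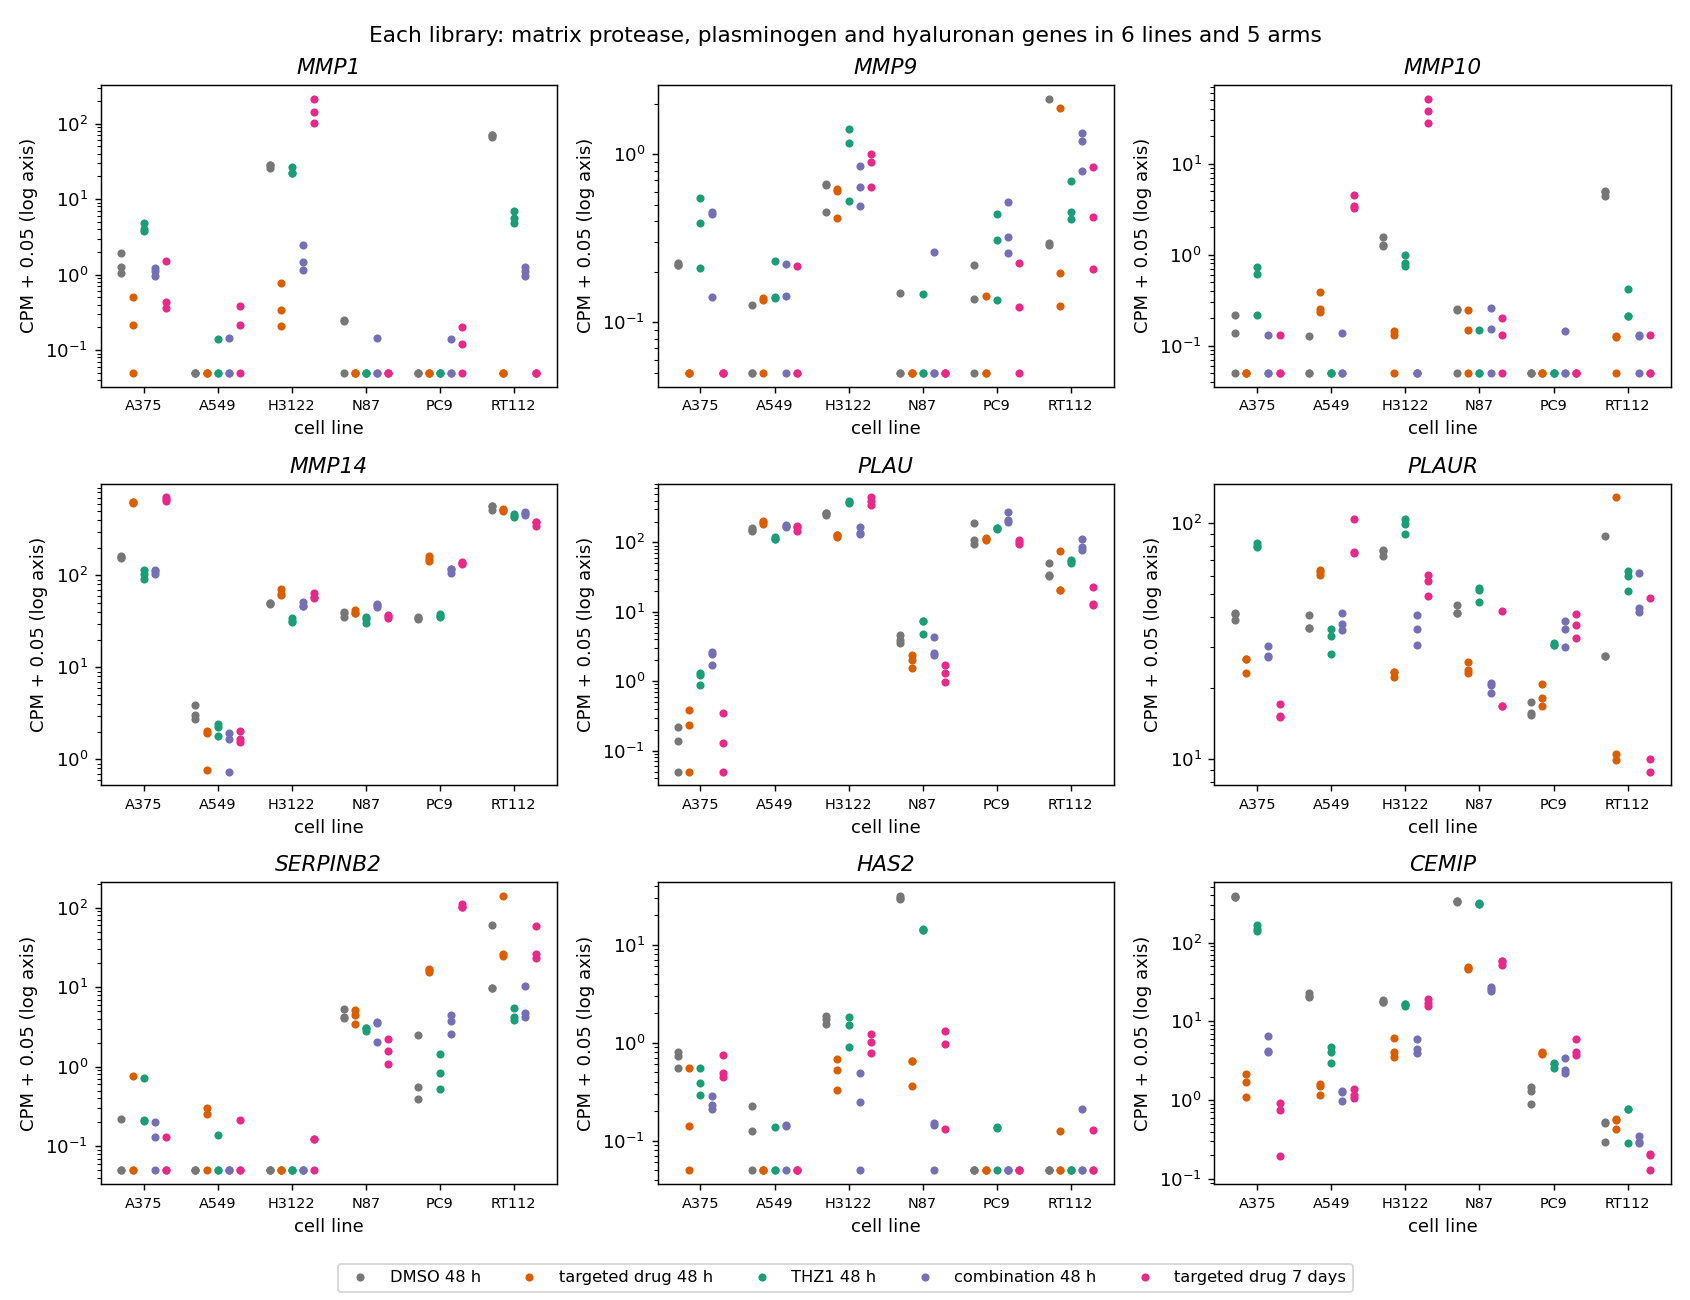
Expression of the 9 members in each of 90 libraries, as CPM + 0.05 on a log axis, by cell line (x axis) and arm (colour). CEMIP in A375 spans from 0.149 CPM at 7 days of vemurafenib to 390 CPM under DMSO, and MMP1 in RT112 has no counts in the 6 libraries of BGJ398 alone.

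Under the targeted drug alone for 48 h, collagenase, stromelysin and both hyaluronan genes were mostly lower than under DMSO, while MMP14 was about 4 times as high in A375 and PC9. Of the 35 pairs tested, 8 were called higher and 17 lower, where 33% of all pairs of a gene and a line were called higher and 33% lower, 66% in all. The 3 libraries of the drug lay above or below all 3 of DMSO in the same numbers, 8 and 17 pairs, where these shares over all genes were 35.2% and 35.1%. The median log2 change of the 35 pairs was -0.36 and that of all genes 0.02. This comparison chose the members, and nothing is read from these counts.

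Adding the targeted drug to THZ1 was the comparison whose 2 arms hold no library of the targeted drug alone or of DMSO. Its fit still used all 15 libraries of a line for the filter, the scaling and the estimate of spread. MMP1, MMP10 in H3122, HAS2 and CEMIP fell in the lines that expressed them, apart from CEMIP in PC9 and MMP10 in A549 and RT112, and MMP14 and SERPINB2 rose in PC9. Of 35 pairs, 6 rose and 15 fell (edgeR quasi-likelihood, adjusted p under 0.05), where 28.6% of all pairs of a gene and a line rose and 29% fell, 57.6% in all. The libraries did not overlap in 9 pairs that were higher and 16 that were lower, where the shares over all genes were 32.6% and 32.4%. The median log2 change was -0.24, beside 0.02 over all genes. The count of rises reached 10 when only the 2 arms compared were fitted, and was 7 without the libraries that stand apart, with 16 falls.

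**Figure D2:**
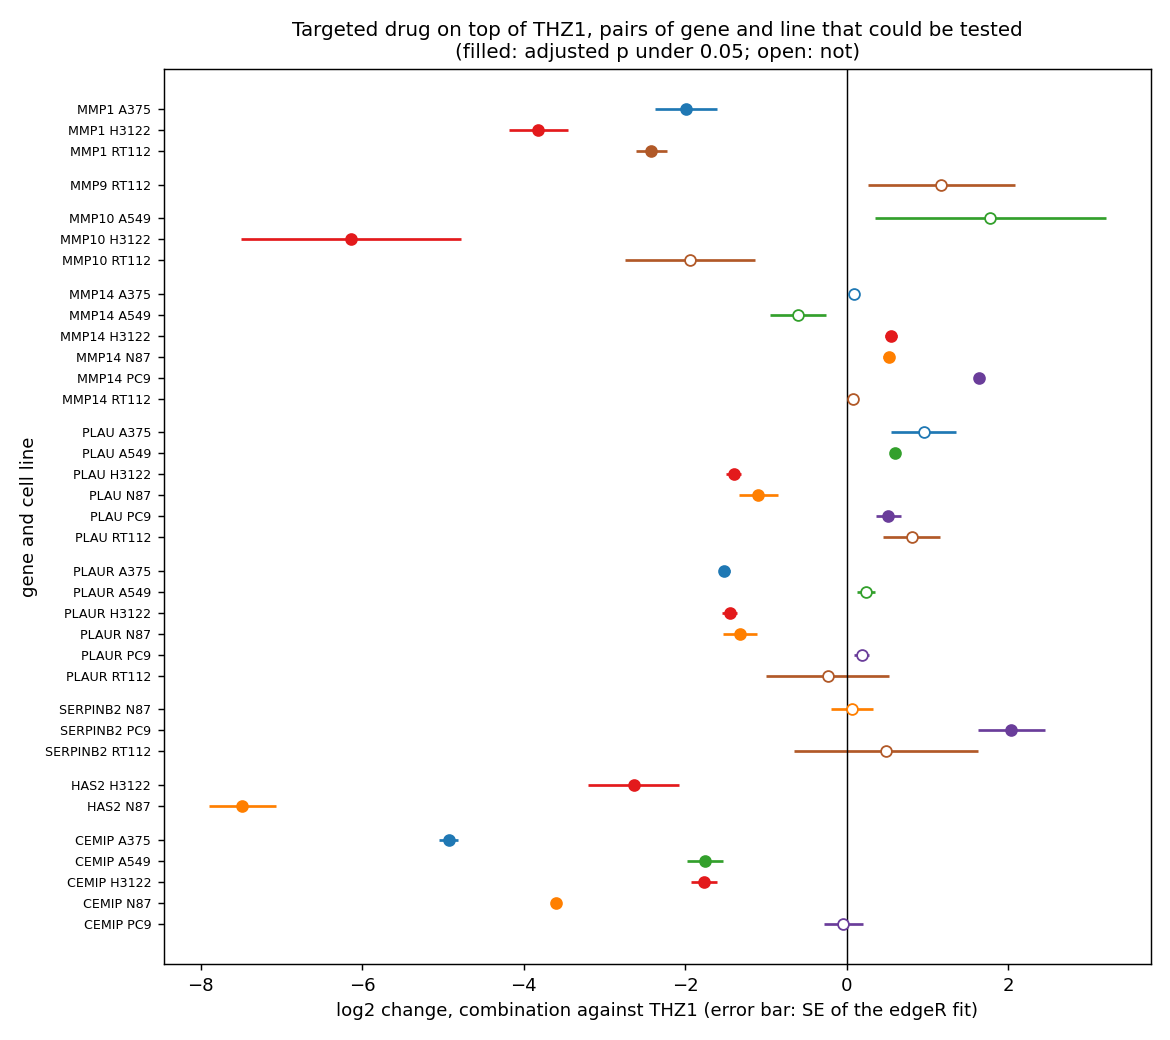
Log2 change of the combination against THZ1 alone (x axis) for the 35 pairs of gene and line that could be tested, with the SE of the edgeR fit as bars, coloured by line. The 4 filled CEMIP points lie between -4.93 and -1.76, and those of MMP14 between 0.52 and 1.64. The point for MMP10 in H3122 depends on the prior count of the fit, since its 3 combination libraries hold no counts.

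THZ1 alone gave calls in both directions. PLAU or PLAUR rose in 4 lines, MMP14 fell in 4, and CEMIP fell in A375 and A549. Of 35 pairs, 8 rose and 11 fell against DMSO, where 20.6% of all pairs rose and 21.3% fell, 41.9% in all. The libraries did not overlap in 9 pairs that were higher and 16 that were lower, beside 26.5% and 26.7% of all pairs. The median log2 change was -0.23, and 0.00 over all genes. Without the libraries that stand apart, 10 pairs rose and 11 fell. When THZ1 was added to the targeted drug, 9 pairs rose and 12 fell, beside 27.5% and 27.4% of all pairs, 54.9% in all, and the median was -0.13, beside 0.01 over all genes. Non-overlapping libraries numbered 13 pairs higher and 13 lower, beside 31.4% and 30.8%, and 11 pairs rose and 12 fell without the libraries that stand apart. Between 48 h and 7 days of targeted drug, 10 pairs rose and 7 fell, beside 23.8% and 24% of all pairs, 47.8% in all. Those counts were 11 and 8 without the libraries that stand apart, and non-overlapping libraries numbered 12 and 8, beside 27% and 27%. Each of these comparisons reuses DMSO or targeted drug libraries of 48 h. The members were chosen with the difference between those arms known. The p-values of these comparisons, here and below, are therefore not independent of that choice.

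With the cell line as the replicate, only MMP14, PLAU and PLAUR passed the filter and could be tested. None of the changes tested passed the threshold. PLAU passed in A375 only through its THZ1 and combination libraries, at 0.846 to 2.59 CPM, beside at most 0.333 CPM in its other arms. Its changes in those arms against DMSO or the targeted drug are therefore tied to the filter. Against DMSO, where 37.1% of all genes were called, the targeted drug differed by 0.65 ± 0.38 (SE) on the log2 scale for MMP14, -0.20 ± 0.44 for PLAU and -0.30 ± 0.35 for PLAUR, given without a test. For the combination against THZ1, the log2 change was 0.48 ± 0.38 (SE) for MMP14, higher in 5 of 6 lines, 0.24 ± 0.45 for PLAU, higher in 4, and -0.71 ± 0.35 for PLAUR, lower in 4. The edgeR adjusted p-values were 0.364, 0.732 and 0.145, where 20.7% of all genes were called. DESeq2 called 0 of the 3 as well, and none had an unadjusted p under 0.05 in edgeR. For the combination against the targeted drug, PLAU had a log2 change of 0.99 ± 0.45, higher in 5 of 6 lines, with an edgeR adjusted p of 0.18. It was the 1 member with an unadjusted p under 0.05 in that comparison, where 8.03% of all genes were called and DESeq2 called no member. For THZ1 against DMSO, where 0.0842% of all genes were called, the 3 adjusted p-values were 0.684 to 0.773, and for 7 days against 48 h, where 0% were called, 0.926 to 0.997. In those 2 comparisons no member had an unadjusted p under 0.05 in edgeR, and DESeq2 called 0 of 3. The effect of a comparison differed between lines, in an edgeR F test over all 90 libraries, for 7 of the 9 members for the combination against THZ1, 5 for THZ1 against DMSO, 3 for the combination against the targeted drug and 7 for 7 days against 48 h. The shares over all genes were 70.2%, 61.4%, 73.8% and 71.6%. Without the libraries that stand apart, 6 members differed in the third of these.

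MMP1 was lower under the targeted drug in each of the 3 lines that expressed it, and lower again when the drug was added to THZ1. In RT112 its level under DMSO was 67.0, 70.1 and 70.6 CPM, and the 3 BGJ398 libraries of 48 h and the 3 of 7 days had no counts. That is at least 926-fold lower at 48 h, taking 3 counts over the group as the floor. THZ1 alone gave 5.53, 4.72 and 6.84 CPM in RT112 and the combination 1.2, 0.914 and 1.07. MMP1 thus fell under THZ1 (log2 change -3.59 ± 0.11, edgeR adjusted p = 4.44e-10) and fell further with BGJ398 added (-2.42 ± 0.19, edgeR adjusted p = 4.32e-07). The combination libraries were nevertheless all above those of BGJ398 alone, at least 14.2-fold (edgeR adjusted p = 4.39e-06). In H3122, MMP1 stood at 28.2, 28.4 and 25.7 CPM under DMSO and 0.159, 0.738 and 0.287 under crizotinib, 69.5-fold lower (log2 change -6.12 ± 0.45, or -6.91 without crizotinib replicate 3, the library with 0.738). It was 22.5, 26.4 and 22.3 CPM under THZ1 and 1.10, 1.43 and 2.44 in the combination, with no overlap between these arms. That fall was -3.82 ± 0.36 on the log2 scale (edgeR adjusted p = 1.51e-07), while the change under THZ1 alone was -0.21 ± 0.22 (edgeR adjusted p = 0.543).

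In A375, MMP1 was low throughout and moved the other way under THZ1. DMSO libraries had 1.01, 1.86 and 1.23 CPM, and THZ1 libraries had 3.72, 3.99 and 4.74, all above DMSO (log2 change 1.64 ± 0.40, edgeR adjusted p = 0.00188). Vemurafenib libraries had 0, 0.167 and 0.453 CPM, and the combination libraries had 1.05, 0.918 and 1.17. MMP1 in A375 was therefore lower in the combination than under THZ1 (-1.99 ± 0.38, edgeR adjusted p = 0.000341) and higher than under vemurafenib alone (1.97 ± 0.64, edgeR adjusted p = 0.011). The vemurafenib library with 0.453 CPM is the one labelled Lung, and without it the difference between vemurafenib and DMSO was -3.77 in place of -2.31 on the log2 scale. The response of MMP1 to THZ1 differed between lines (edgeR F test, adjusted p = 7.07e-17), and so did its response to the targeted drug on top of THZ1 (edgeR F test, adjusted p = 0.00466).

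MMP10 lies next to MMP1 on chromosome 11 and was lower under the targeted drug in both lines that expressed it under DMSO. In H3122 it stood at 1.23, 1.21 and 1.51 CPM under DMSO, 0.0795, 0 and 0.0958 under crizotinib, and 0.707, 0.944 and 0.760 under THZ1. The combination had no counts in its 3 libraries, at least 7.85-fold lower than THZ1 (edgeR adjusted p = 0.00148). In RT112 it was 4.81, 4.95 and 4.36 CPM under DMSO, and the 12 libraries of the other arms reached at most 0.364. MMP10 passed the filter on low counts there only through DMSO, so the p-value of THZ1 against DMSO is no independent support. BGJ398 was 93.4-fold lower than DMSO (95% counting interval 25.7 to 786), and THZ1 was 20.6-fold lower (log2 change -4.29 ± 0.37, edgeR adjusted p = 1.92e-07). Between the combination and THZ1 in RT112, 0.0800, 0 and 0.0762 against 0.160, 0.160 and 0.364 CPM, the test did not pass (edgeR adjusted p = 0.0591). Over the 30 means of a line and arm, centred on each line, MMP10 and MMP1 had a Pearson correlation of 0.812. The other neighbours within 2 genes were not alike in this sense, MMP8 with -0.114 for MMP1 and 0.029 for MMP10, and MMP3 with 0.029 and -0.065. These points share lines, libraries and zeros, and the values are descriptions.

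Crizotinib for 7 days left H3122 with far more MMP1 and MMP10 than 48 h did, and more than vehicle had at 48 h. MMP1 was 215, 144 and 101 CPM at 7 days, 389-fold above 48 h (log2 change 8.60 ± 0.37, edgeR adjusted p = 4.38e-13). MMP10 was 52.0, 37.5 and 28.1 CPM, 671-fold above 48 h with a 95% counting interval of 181 to 5423 (edgeR adjusted p = 4.74e-12). All 3 libraries lay above every library of the 4 arms of 48 h in both genes. PLAU, PLAUR and CEMIP rose as well between these times. PLAU went from 120, 127 and 128 CPM to 398, 447 and 347 (1.67 ± 0.09, edgeR adjusted p = 1.12e-11), above the 250 to 267 CPM of DMSO. PLAUR went from 23.4, 23.3 and 22.2 CPM to 60.5, 56.8 and 49.2 (1.27 ± 0.10, edgeR adjusted p = 1.64e-09), below the 72.3 to 77.2 CPM of DMSO. CEMIP went from 6.12, 3.5 and 4.02 CPM to 19.1, 16.8 and 15.8 (1.90 ± 0.16, edgeR adjusted p = 4.89e-09), beside 17.5 to 18.6 CPM under DMSO. Replicate 1, which stands apart, held the highest MMP1 and MMP10. Without it the log2 changes were 8.30 for MMP1, 8.89 for MMP10, 1.69 for PLAU, 1.23 for PLAUR and 1.85 for CEMIP, and all 5 calls held. HAS2 (1.19) and MMP14 (-0.16) passed the threshold only without it, at edgeR adjusted p-values of 0.0485 and 0.0348. With no vehicle of 7 days analysed here, time in culture and time on crizotinib cannot be told apart.

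**Figure D3:**
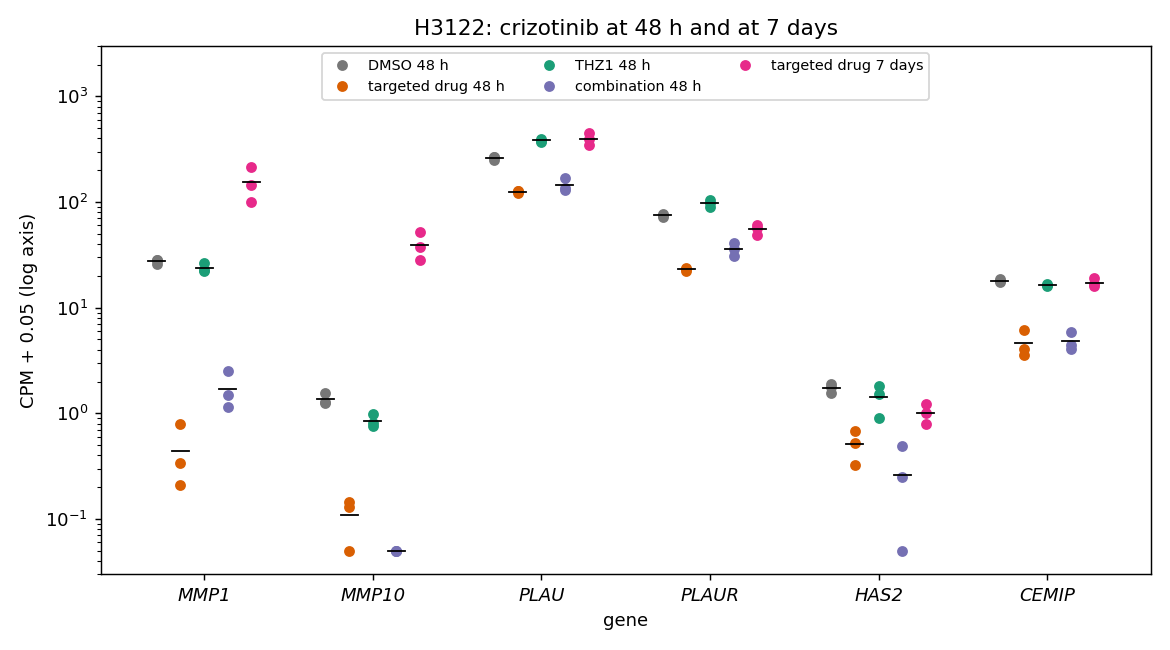
H3122, CPM + 0.05 on a log axis for 6 members, with each point 1 library and the bar the mean of 3. At 7 days of crizotinib MMP1 (101 to 215 CPM) and MMP10 (28.1 to 52.0 CPM) lie above all other arms, while CEMIP (15.8 to 19.1 CPM) lies at the level of DMSO.

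MMP10 also rose between 48 h and 7 days in A549, where DMSO libraries had 0.0764, 0 and 0 CPM. GSK1120212 gave 0.342, 0.181 and 0.205 CPM at 48 h and 3.39, 3.19 and 4.51 at 7 days, 15.3-fold more (log2 change 3.85 ± 0.44, edgeR adjusted p = 8.12e-07). MMP10 passed the filter on low counts in A549 only through these 7 day libraries, so this p-value is no independent support for the rise. MMP1 in A549 stayed at or under 0.334 CPM in all 15 libraries and was not tested. The fall of MMP10 from the targeted drug to the combination in A549 passed at an edgeR adjusted p of 0.0442, on 1 count in the combination. It was lost on leaving out any of 5 libraries, combination replicate 1 or 2 or GSK1120212 replicate 2, 3 or 4, with log2 changes from -2.78 to -2.17 beside -2.61. It was also lost by DESeq2 (-2.92), without the filter on low counts (-2.60) and with the replicate block (-2.70).

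MMP14 was higher, not lower, under the targeted drug in A375 and PC9. In A375 it stood at 162, 157 and 157 CPM under DMSO and 617, 636 and 636 under vemurafenib, 3.98-fold higher (log2 change 1.99 ± 0.06). In PC9 it was 33.2, 34.1 and 35.7 CPM under DMSO and 161, 149 and 142 under erlotinib, 4.39-fold higher (2.14 ± 0.06). The difference was small in H3122 (0.38 ± 0.07), N87 (0.06 ± 0.07) and RT112 (-0.09 ± 0.05), and in A549, where MMP14 was 2.71 to 3.90 CPM, it was -1.04 ± 0.32. A375 and PC9 gave unlike values once THZ1 was present. With THZ1 present, A375 had 91.0, 116 and 104 CPM without vemurafenib and 112, 103 and 114 with it (0.09 ± 0.07, edgeR adjusted p = 0.316), a difference that was 0.18 and passed without THZ1 replicate 3. PC9 had 38.0, 35.1 and 36.0 CPM under THZ1 and 116, 106 and 118 in the combination, so that MMP14 rose by 1.64 ± 0.06 on the log2 scale (edgeR adjusted p = 2.16e-15). Against the targeted drug alone, the combination was 5.73-fold lower in A375 (log2 change -2.52 ± 0.06, edgeR adjusted p = 1.24e-16) and 1.33-fold lower in PC9 (-0.42 ± 0.05, edgeR adjusted p = 2.99e-07). The effect of THZ1 on top of the targeted drug differed between lines (edgeR F test, adjusted p = 3.19e-37).

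Changes of MMP14 in H3122, N87 and RT112 were smaller. The combination exceeded THZ1 in H3122, 45.9, 46.2 and 50.8 against 31.4, 32.1 and 34.1 CPM (0.55 ± 0.07, edgeR adjusted p = 7.48e-06). It did so in N87 as well, 45.8, 48.1 and 49.5 against 30.6, 35.7 and 33.8 CPM (0.52 ± 0.07, edgeR adjusted p = 6.1e-07). THZ1 alone lowered MMP14 in A375 (-0.61 ± 0.07), H3122 (-0.62 ± 0.07), RT112 (-0.30 ± 0.05) and N87 (-0.20 ± 0.07), at edgeR adjusted p-values of 2.75e-07, 7.71e-06, 0.000204 and 0.0346. The call in N87 was lost without DMSO replicate 2 (-0.16) or 4 (-0.19), without THZ1 replicate 2 (-0.14) or 4 (-0.21), by DESeq2 (-0.21), without the filter on low counts (-0.20) and with only the 2 arms compared (-0.19). In RT112, the line with the most MMP14 under DMSO, it fell between 48 h and 7 days from 507, 520 and 525 to 380, 385 and 343 CPM (-0.49 ± 0.05, edgeR adjusted p = 1.73e-06). A375 stayed high at 7 days, at 707, 673 and 649 CPM (0.10 ± 0.06 against 48 h, edgeR adjusted p = 0.176). In PC9 the fall at 7 days to 141, 136 and 132 CPM (-0.15 ± 0.05, edgeR adjusted p = 0.0167) was lost without erlotinib 48 h replicate 2 (-0.10), without 7 day replicate 4 (-0.11), by DESeq2 (-0.12) and with RLE scaling (-0.12). The fall of MMP14 from BGJ398 to the combination in RT112 (-0.13 ± 0.05, edgeR adjusted p = 0.0346) was lost on leaving out any of 4 libraries, BGJ398 replicate 2 or 4 or combination replicate 1 or 2. Its value then ran from -0.13 to -0.11, and without replicate 1 of every arm it was -0.14 and was called.

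MMP9 stayed low. Its highest library in lines other than RT112 was 1.36 CPM, in H3122 under THZ1, and RT112 was the only line in which it could be tested. There DMSO gave 2.09, 0.240 and 0.247 CPM, BGJ398 1.83, 0.147 and 0.0748, THZ1 0.401, 0.641 and 0.364, and the combination 1.28, 0.748 and 1.14. Replicate 1 was the highest in each arm that has one, and no comparison of MMP9 passed the threshold with all libraries. Without BGJ398 replicate 1 the change from BGJ398 to the combination was 3.14 in place of 0.64 and passed.

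PLAU rose with THZ1 in 3 of 6 lines, and the targeted drug moved it up or down on top of THZ1 by line. Under the targeted drug alone it was about 2-fold lower in H3122, 120, 127 and 128 CPM beside 264, 267 and 250 under DMSO (log2 change -1.06 ± 0.09). It was also lower in N87, 2, 1.49 and 2.33 CPM beside 3.51, 3.82 and 4.55 (-1.03 ± 0.28), and somewhat higher in A549, 187, 196 and 202 CPM beside 163, 147 and 149 (0.35 ± 0.06). THZ1 alone raised PLAU in H3122 to 398, 378 and 372 CPM (0.56 ± 0.09, edgeR adjusted p = 0.000147), with no overlap with DMSO. In A375, PLAU rose from 0, 0.169 and 0.0876 CPM to 0.846, 1.16 and 1.29 under THZ1, 12.9-fold with a 95% counting interval of 3.37 to 116 (edgeR adjusted p = 0.000718). There PLAU passed the filter on low counts only through THZ1 and combination libraries, so this p-value is no independent support for the rise. The rise under THZ1 in N87, to 7.30, 7.42 and 4.74 CPM (0.71 ± 0.23, edgeR adjusted p = 0.0234), was lost by DESeq2 (0.70), with the replicate block (0.66) and on leaving out any of 4 libraries, DMSO replicate 1 (0.62) or 2 (0.68) or THZ1 replicate 2 (0.61) or 3 (0.59). In A549, PLAU fell under THZ1, to 121, 113 and 110 CPM (-0.41 ± 0.06, edgeR adjusted p = 5.02e-06).

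On top of THZ1 the targeted drug lowered PLAU in H3122 and N87 and raised it in A549. In H3122 the combination had 167, 130 and 136 CPM (-1.40 ± 0.09 against THZ1, edgeR adjusted p = 1.17e-09). In N87 it had 2.53, 4.23 and 2.38 CPM (-1.09 ± 0.24, edgeR adjusted p = 0.000373). In A549 it had 181, 168 and 172 CPM (0.60 ± 0.06, edgeR adjusted p = 6.64e-09). These directions are those the targeted drug had without THZ1 in the same 3 lines. Over all genes, 85.7% of the pairs of a gene and a line called without THZ1 kept their direction with it. Nothing is therefore read from this likeness. PC9 differed in sign, with -0.22 under erlotinib alone and 0.52 on top of THZ1. The effect of the targeted drug on PLAU on top of THZ1 differed between lines (edgeR F test, adjusted p = 4.49e-12). In PC9, PLAU had 160, 161 and 157 CPM under THZ1 and 274, 209 and 200 in the combination (0.52 ± 0.16, edgeR adjusted p = 0.00717), a call lost without combination replicate 1 (0.36) and by DESeq2 (0.49). Against erlotinib alone, at 115, 114 and 108 CPM, the same combination libraries were 2.03-fold higher (1.02 ± 0.16, edgeR adjusted p = 1.13e-05). In A375 the combination reached 2.59, 2.39 and 1.64 CPM, 12.9-fold above the 0, 0.333 and 0.181 of vemurafenib (3.55 ± 0.58, edgeR adjusted p = 2.75e-05). That p-value is no independent support either, as PLAU passed the filter in A375 only through THZ1 and combination libraries. In A549 the fall from GSK1120212 to the combination (-0.17 ± 0.05, edgeR adjusted p = 0.0181) was lost on leaving out any of 4 libraries, combination replicate 2 or 3 or GSK1120212 replicate 3 or 4, with values from -0.16 to -0.14. PC9 DMSO replicate 4 had 190 CPM of PLAU beside 95.5 and 108. Without it the difference between erlotinib and DMSO was 0.14 in place of -0.22, and PLAU passed under THZ1 (0.64 in place of 0.28).

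PLAUR, the urokinase receptor, rose under THZ1 in A375, H3122 and PC9 and fell when the targeted drug was added in A375, H3122 and N87. In A375 it was 38.7, 41.1 and 41.5 CPM under DMSO, 79.7, 79.2 and 82.1 under THZ1 and 27.2, 30 and 27.2 in the combination. The rise under THZ1 was 0.99 ± 0.07 on the log2 scale (edgeR adjusted p = 7.68e-10), and the combination was 2.86-fold below THZ1 (-1.52 ± 0.07, edgeR adjusted p = 3.16e-12). Vemurafenib alone gave 26.6, 26.7 and 23.2 CPM at 48 h, and PLAUR fell further by 7 days, to 17.0, 15.3 and 15 (-0.67 ± 0.08, edgeR adjusted p = 3.23e-06). In H3122 the same order held, with 76.1, 72.3 and 77.2 CPM under DMSO, 104, 98.8 and 90.1 under THZ1 and 40.8, 30.6 and 35.6 in the combination. The rise under THZ1 was 0.37 ± 0.09 (edgeR adjusted p = 0.00402) and the fall from THZ1 to the combination -1.45 ± 0.09 (edgeR adjusted p = 1.17e-09). In N87 the combination gave 20.9, 20.5 and 19.0 CPM against 51.8, 53.3 and 46.2 under THZ1 (-1.32 ± 0.21, edgeR adjusted p = 1.46e-05). N87 at 7 days had 42.5, 16.8 and 16.8 CPM. Replicate 1 sets the sign of that change, 0.12 ± 0.23 with it (edgeR adjusted p = 0.704) and -0.48 without it.

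PLAUR was higher under the targeted drug in A549, and the difference in PC9 was 0.21 ± 0.11. In A549 it was 40.9, 35.9 and 35.8 CPM under DMSO and 63.2, 60.1 and 62.1 under GSK1120212 (0.71 ± 0.10), and it rose further by 7 days, to 104, 75.2 and 74.9 (0.45 ± 0.10, edgeR adjusted p = 0.000797). THZ1 on top of GSK1120212 brought PLAUR in A549 down to 41.8, 37.4 and 35.2 CPM (-0.70 ± 0.10, edgeR adjusted p = 1.67e-05). In PC9 THZ1 raised PLAUR from 15.7, 15.3 and 17.4 to 30.6, 30.4 and 31 CPM (0.93 ± 0.10, edgeR adjusted p = 2e-07). The 7 day erlotinib libraries had 41.3, 37.1 and 32.7 CPM, 2-fold above the 20.9, 16.7 and 18.1 of 48 h (0.99 ± 0.10, edgeR adjusted p = 4.6e-08). The response of PLAUR to the targeted drug on top of THZ1 differed between lines (edgeR F test, adjusted p = 0.00259).

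In RT112 the plasminogen genes depend on replicate 1. PLAUR was 88.3 CPM in replicate 1 and 27.4 and 27.3 in its partners under DMSO, and 129 beside 9.91 and 10.5 under BGJ398. It was 61.7 beside 43.6 and 42.1 in the combination and 48.0 beside 9.98 and 8.82 at 7 days, while the 3 THZ1 libraries, which include no replicate 1, had 59.6, 62.5 and 51.7. With all libraries no comparison of PLAUR in RT112 passed, although without the filter on low counts 3 did (-0.24 from THZ1 to the combination, 0.28 under THZ1 and -1.18 at 7 days), and the change from BGJ398 to the combination was -0.01 ± 0.77. Without replicate 1, which leaves 2 libraries in each arm but THZ1, PLAUR rose under THZ1 (1.08, edgeR adjusted p = 3.37e-10), rose from BGJ398 to the combination (2.05, edgeR adjusted p = 6.24e-13) and fell from THZ1 to the combination (-0.44, edgeR adjusted p = 1.66e-05). Under BGJ398 it then differed from DMSO by -1.42 in place of 0.05. PLAU was 50.9 beside 33 and 33.8 CPM under DMSO, 75.3 beside 20.9 and 20.5 under BGJ398, 113 beside 86.6 and 78.6 in the combination, and 22.4 beside 13.1 and 12.5 at 7 days. The THZ1 libraries had 50.8, 53.3 and 55.2 CPM of PLAU. Mean PLAU under BGJ398 was 0.991 times that of DMSO with all libraries, and without replicate 1 in every arm the log2 difference was -0.68. With all libraries PLAU rose from BGJ398 to the combination (1.26 ± 0.36, edgeR adjusted p = 0.00643) and fell from 48 h to 7 days (-1.28 ± 0.42, edgeR adjusted p = 0.0234). Without replicate 1 these were 1.97 and -0.71 and were called, and PLAU also rose under THZ1 (0.67, edgeR adjusted p = 3.79e-08) and from THZ1 to the combination (0.63, edgeR adjusted p = 4.67e-09). Leaving out only BGJ398 replicate 1, 7 day replicate 3 or 7 day replicate 4 ended the call at 7 days, with log2 changes of -0.38, -1.15 and -1.14, and fitting only the 2 arms compared ended it too (-1.28).

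**Figure D4:**
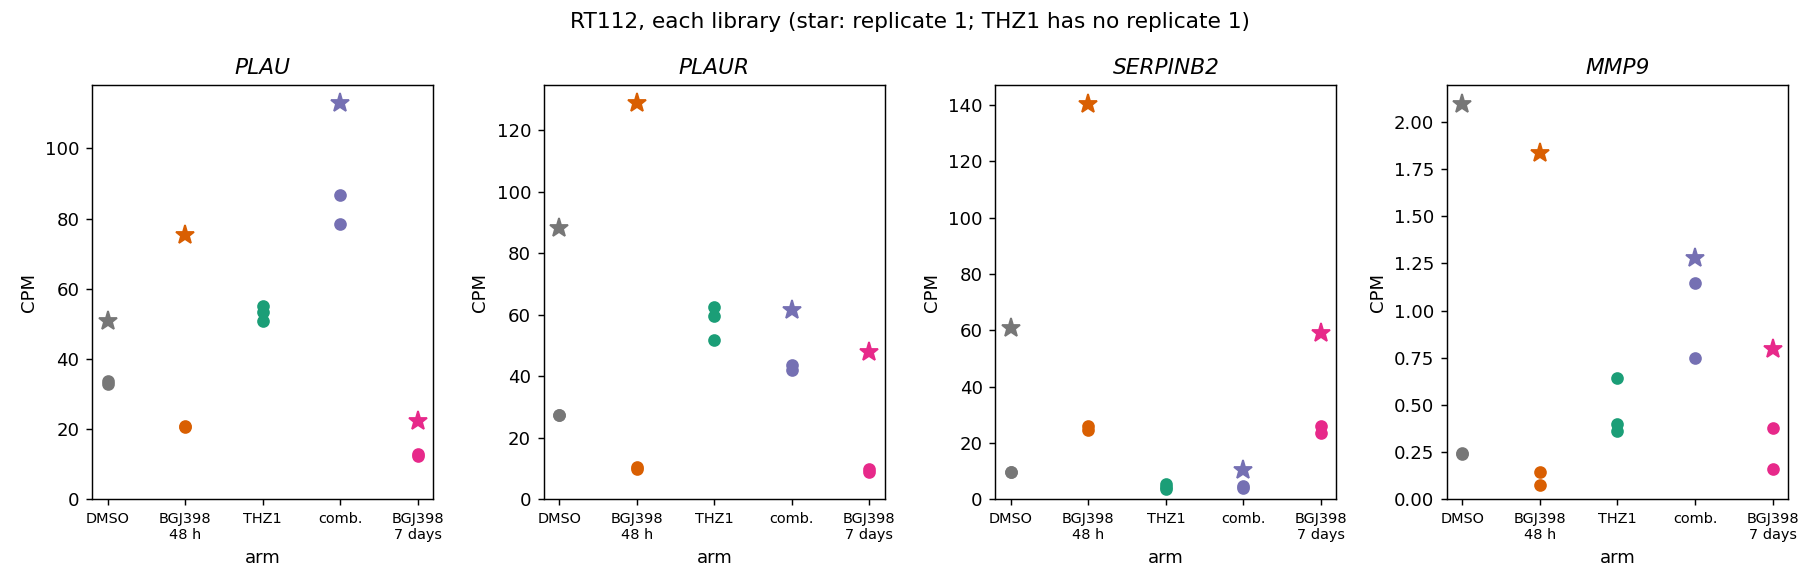
RT112, CPM of PLAU, PLAUR, SERPINB2 and MMP9 by arm on linear axes from 0, each point 1 library and stars replicate 1. Replicate 1 is the highest library of each of the 4 genes in every arm that has one. Under BGJ398, PLAUR is 129 CPM in it beside 9.91 and 10.5.

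SERPINB2, the inhibitor of urokinase, was expressed in RT112, N87 and, under drug, in PC9. In PC9 it stood at 0.342, 0.507 and 2.46 CPM under DMSO and 15.3, 16.2 and 17.0 under erlotinib, 14.7-fold higher (log2 change 3.88 ± 0.28, or 5.21 without DMSO replicate 4, the library with 2.46). By 7 days it had risen further, to 101, 111 and 101 CPM, 6.45-fold above 48 h (2.69 ± 0.13, edgeR adjusted p = 7.27e-13). THZ1 libraries had 0.773, 1.39 and 0.470 CPM and combination libraries 4.42, 3.70 and 2.50, with no overlap between the 2 arms. On top of THZ1, erlotinib thus raised SERPINB2 4.03-fold (2.04 ± 0.41, edgeR adjusted p = 0.000245), and the combination was 4.57-fold below erlotinib alone (-2.18 ± 0.23, edgeR adjusted p = 3.08e-08). In N87, SERPINB2 fell between 48 h and 7 days, from 4.41, 5.06 and 3.40 to 2.18, 1.52 and 1.03 CPM (-1.44 ± 0.28, edgeR adjusted p = 0.000299). In RT112 it was 60.6, 9.59 and 9.78 CPM under DMSO, 140, 26.0 and 24.4 under BGJ398, 3.85, 4.21 and 5.46 under THZ1 and 10.3, 4.15 and 4.65 in the combination, where the first value of each arm but THZ1 is replicate 1. SERPINB2 fell there under THZ1 (-2.56 ± 0.93, edgeR adjusted p = 0.0369) and from BGJ398 to the combination (-3.31 ± 0.83, edgeR adjusted p = 0.00238). Without replicate 1 in every arm these were -1.09 (edgeR adjusted p = 3e-06) and -2.53 (edgeR adjusted p = 1.97e-12). BGJ398 differed from DMSO by 1.24 with all libraries and 1.39 without replicate 1 in every arm, but by -0.083 without BGJ398 replicate 1 alone and by 2.71 without DMSO replicate 1 alone. The call under THZ1 was lost when only DMSO replicate 1 (-1.09), THZ1 replicate 2 (-2.45), THZ1 replicate 3 (-2.51) or THZ1 replicate 4 (-2.73) was left out. The change of SERPINB2 from 48 h to 7 days differed between lines (edgeR F test, adjusted p = 2.47e-06).

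HAS2, the hyaluronan synthase, was chiefly an N87 transcript in these libraries. It stood at 30.1, 31.3 and 29 CPM under DMSO and 0.315, 0.596 and 0.606 under lapatinib, 59.6-fold lower (log2 change -5.87 ± 0.26). THZ1 alone lowered it to 14, 14.2 and 14.5 CPM (-1.08 ± 0.15, edgeR adjusted p = 1.2e-05). The combination held 0.0939, 0 and 0.103 CPM, 216-fold below THZ1 with a 95% counting interval of 58.3 to 1755 (edgeR adjusted p = 1.53e-12). It was lower than lapatinib alone as well, 7.69-fold with a counting interval of 1.74 to 67.4 (edgeR adjusted p = 0.0193), a call lost without combination replicate 2 (-2.22 in place of -2.69 on the log2 scale) or lapatinib replicate 2 (-2.56) or 3 (-2.57). At 7 days the N87 libraries had 0.0806, 0.916 and 1.26 CPM, which overlap those of 48 h (0.52 ± 0.55, edgeR adjusted p = 0.467). Without 7 day replicate 1, the lowest, that change was 1.21 and was called. In H3122 HAS2 was 1.84, 1.51 and 1.71 CPM under DMSO, 0.636, 0.277 and 0.479 under crizotinib, 1.46, 1.78 and 0.855 under THZ1 and 0.200, 0.441 and 0 in the combination. The fall from THZ1 to the combination was 6.40-fold there (-2.64 ± 0.57, edgeR adjusted p = 0.00088).

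CEMIP was the hyaluronan gene with the widest range. In A375 it stood at 381, 390 and 377 CPM under DMSO and 1.06, 1.67 and 2.08 under vemurafenib, 238.5-fold lower (log2 change -7.79 ± 0.15, or -8.105 without the vemurafenib library labelled Lung). It fell further by 7 days, to 0.872, 0.697 and 0.149 CPM (-1.38 ± 0.44, edgeR adjusted p = 0.0176), a call lost without the vemurafenib library labelled Lung (-1.06). THZ1 alone gave 138, 166 and 150 CPM (-1.34 ± 0.08, edgeR adjusted p = 1.01e-10), and the combination 4.22, 4.04 and 6.49. CEMIP thus fell 30.8-fold when vemurafenib was added to THZ1 (-4.93 ± 0.12, edgeR adjusted p = 1.24e-15), and the combination was 3.06-fold above vemurafenib alone (1.53 ± 0.28, edgeR adjusted p = 8.08e-05). In N87, CEMIP was 332, 338 and 330 CPM under DMSO, 46.6, 49.4 and 48.2 under lapatinib, 318, 309 and 311 under THZ1 and 24.3, 25.9 and 27.1 in the combination. Lapatinib on top of THZ1 lowered it 12.1-fold there (-3.60 ± 0.05, edgeR adjusted p = 1.92e-20), and the combination was 1.87-fold below lapatinib alone (-0.90 ± 0.06, edgeR adjusted p = 1.84e-10). THZ1 alone left CEMIP in N87 at -0.09 ± 0.04 (edgeR adjusted p = 0.11), although its 3 libraries lay below those of DMSO, and the change passed with the replicate block (-0.12).

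In A549 and H3122, CEMIP was lower under the targeted drug as well. A549 had 23.0, 21.1 and 20.2 CPM under DMSO, 1.54, 1.45 and 1.13 under GSK1120212, 4.67, 2.90 and 4.09 under THZ1 and 1.27, 0.935 and 1.2 in the combination. Its falls were -2.46 ± 0.14 under THZ1 (edgeR adjusted p = 1.5e-11) and -1.76 ± 0.22 from THZ1 to the combination (edgeR adjusted p = 5.65e-07). H3122 had 15.8, 16.4 and 16.6 CPM under THZ1 and 4.39, 3.97 and 5.87 in the combination (-1.77 ± 0.16, edgeR adjusted p = 1.1e-07). PC9 was the exception, with 0.854, 1.27 and 1.41 CPM under DMSO and 3.84, 3.89 and 4.09 under erlotinib (1.74 ± 0.26). There THZ1 alone raised CEMIP to 2.49, 2.87 and 2.90 CPM (1.22 ± 0.27, edgeR adjusted p = 0.000768), and erlotinib on top of THZ1 gave 2.16, 3.43 and 2.40 (-0.04 ± 0.24, edgeR adjusted p = 0.895). The effect of the targeted drug on top of THZ1 differed between lines (edgeR F test, adjusted p = 1.63e-28). The fall from erlotinib to the combination in PC9 (-0.55 ± 0.23, edgeR adjusted p = 0.04) was lost by DESeq2 (-0.55), with the replicate block (-0.44) and on leaving out combination replicate 1 (-0.42) or 3 (-0.49) or erlotinib replicate 2 (-0.57), 3 (-0.56) or 4 (-0.53). RT112 had at most 0.728 CPM of CEMIP and was not tested.

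By a rule of likeness, the genes with the highest Pearson correlation with a member over the 30 centred means of a line and arm were sought among 6535 genes. For CEMIP they were ABHD17C (0.906), TFB1M (0.868) and SLC38A1 (0.856). ABHD17C is the neighbour of CEMIP on chromosome 15, while the other genes within 2 places had 0.292 (ARNT2), 0.313 (MESD) and 0.421 (TLNRD1). In A375, ABHD17C went from a mean of 199 CPM under DMSO to 10.3 under vemurafenib, 162 under THZ1 and 23.2 in the combination. In A549 it had 30.4 CPM under DMSO and 31.3 under THZ1, where CEMIP fell. For PLAUR the closest were SERPINE2 (0.836), which encodes another serine protease inhibitor, CSF2 (0.835) and GAL (0.809), and for PLAU SH2D5 (0.817), ELL2 (0.778) and GAST (0.776). For HAS2 they were CCL24 (0.917), FGF20 (0.899) and FGF19 (0.823), for SERPINB2 TNNT3 (0.899) and OVCH2 (0.877), and for MMP14 EGFL8 (0.839), HLA-DQA1 (0.838) and SYPL2 (0.821). For MMP1 they were CPHL1P (0.870), PIWIL1 (0.862) and MUC2 (0.823), for MMP10 CHST2 (0.880), SPTB (0.819) and MMP1 (0.812), and for MMP9 PTPRN (0.830), LINC01119 (0.826) and ULBP2 (0.803). Among the members, PLAU and PLAUR had 0.647 and MMP9 and MMP14 -0.511. All these points share lines and libraries, and the values carry no test.

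**Figure D5:**
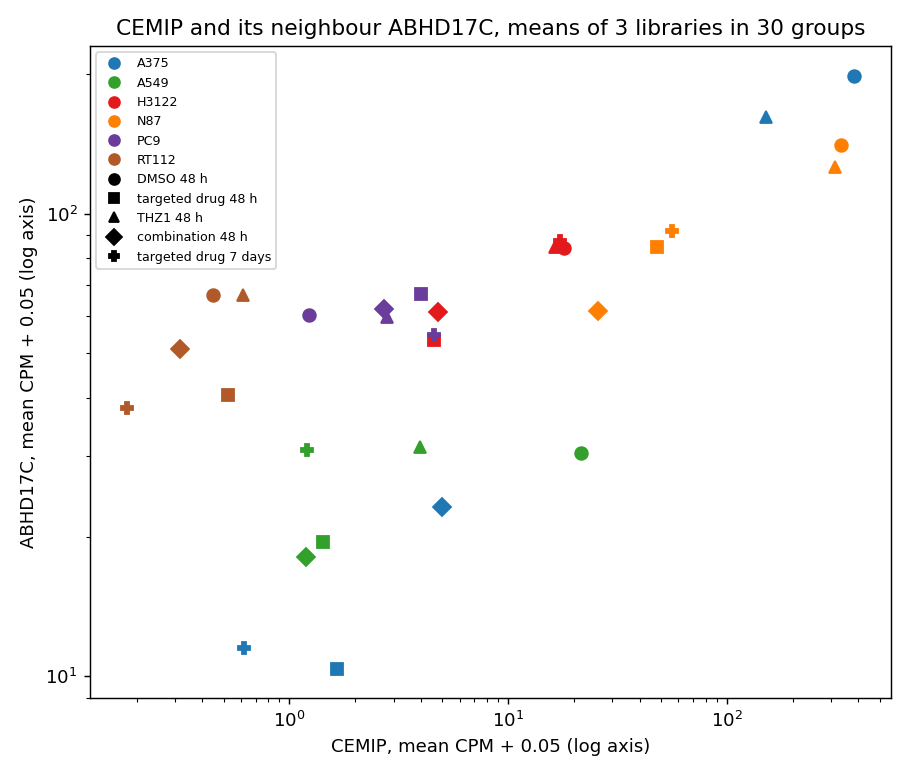
Mean CPM + 0.05 of CEMIP (x axis) and of its chromosomal neighbour ABHD17C (y axis) in 30 groups of 3 libraries, both axes logarithmic, lines by colour and arms by shape. For CEMIP and ABHD17C, the A375 points lie at 383 and 199 CPM under DMSO and at 1.60 and 10.3 CPM under vemurafenib at 48 h. At 7 days of vemurafenib they are 0.572 and 11.5 CPM. The 5 RT112 points lie under 1 CPM of CEMIP with 37.9 to 66.7 CPM of ABHD17C.

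Other genes of the same systems were tested with the cell line as the replicate. Of 81 genes in 7 lists, 39 were expressed in every line and tested. The lists were drawn up with earlier results of these data known, so their p-values, here and below, are no independent support. Most genes were named by a rule that asks for the same sign in 6 of 6 lines, so that agreement is part of the choice. Under the targeted drug at 48 h, 9 rose and 6 fell, where 18.6% of all genes rose and 18.5% fell. Among them LRP1, the receptor that clears urokinase with its inhibitor, rose by 0.91 ± 0.25 on the log2 scale (edgeR adjusted p = 0.00685, higher in 6 of 6 lines). ENO1, a glycolytic enzyme that also binds plasminogen at the cell surface, was lower in 6 of 6 lines (-1.13 ± 0.19, edgeR adjusted p = 0.000231). The plasminogen receptor gene PLGRKT fell by 0.59 ± 0.19 (edgeR adjusted p = 0.0153, lower in 6 of 6 lines). The proteases named here were higher in 6 of 6 lines, the lysosomal CTSB (0.67 ± 0.15, edgeR adjusted p = 0.00174) and the procollagen protease BMP1 (1.15 ± 0.36, edgeR adjusted p = 0.0155). Of the 11 AP-1 and ETS factors tested, 4 rose and 3 fell, and ETV4 (-5.10 ± 1.00) and ETV5 (-4.52 ± 0.94), both ETS factors of the PEA3 group, were lower in 6 of 6 lines (edgeR adjusted p = 0.000692 and 0.00104). JUNB rose by 0.88 ± 0.20 in 6 of 6 lines (edgeR adjusted p = 0.00174).

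On top of THZ1, 4 of the 39 rose and 5 fell, where 10.1% of all genes rose and 10.6% fell. ENO1 (-0.68 ± 0.19, edgeR adjusted p = 0.0168) and PLGRKT (-0.62 ± 0.19, edgeR adjusted p = 0.024) fell again, with 6 of 6 lines lower. In the list of factors, ETV5 (-2.96 ± 0.86, edgeR adjusted p = 0.0208) and ETV4 (-2.62 ± 0.86, edgeR adjusted p = 0.0353) fell and FOSB (1.16 ± 0.40, edgeR adjusted p = 0.0438) rose, in 6 of 6 lines each. FOSL1, an AP-1 member named after its values were seen, fell by 1.37 ± 0.46 (edgeR adjusted p = 0.039) and was lower in 5 of 6 lines. These counts rest on single lines: with 1 line left out, rises ran from 1 (without A549 or N87) to 6 and falls from 0 (without N87) to 6, and there were 2 rises and 1 fall without PC9 and 1 fall without A549. THZ1 alone lowered 1 of the 39, JUND (-0.89 ± 0.15, edgeR adjusted p = 0.0216, lower in 6 of 6 lines), and raised 0, where 0.0589% of all genes rose and 0.0253% fell. At an unadjusted p under 0.05, 2 of the 39 were higher and 4 lower under THZ1, and DESeq2 called 0 higher and 4 lower. The call on JUND was lost without any 1 of the lines A375, A549, N87, PC9 or RT112. When THZ1 was added to the targeted drug, 3 AP-1 genes fell, JUN (-2 ± 0.38, edgeR adjusted p = 0.00275), FOS (-1.43 ± 0.41, edgeR adjusted p = 0.0347) and JUND (-1 ± 0.15, edgeR adjusted p = 0.000841), lower in 6 of 6 lines, and 0 genes of the lists rose, where 3.7% of all genes rose and 4.34% fell. In that comparison DESeq2 called 1 higher and 4 lower, and 1 gene was higher at an unadjusted p under 0.05. Between 48 h and 7 days 0 of the 39 were called, with 2 higher and 2 lower at an unadjusted p under 0.05 and 0 called by DESeq2.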

How the data were processed

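RNA from 90 libraries of 6 cell lines was sequenced. Per the submitters' processing notes, the authors mapped reads to hg19 with Bowtie2 2.2.1 and estimated expected counts per gene with RSEM 1.2.12. The annotation was not given in the sources used here. Libraries were made with the NEBNext Ultra RNA kit, per the labels' protocols. The deposited expected counts (5641054 to 14361081 per library, 7.83% to 13.75% of values not whole) were rounded to whole numbers for all tests. Precision is limited by these totals, and intervals on ratios of 1 to 3 counts cover counting error only.

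The 9 members and the lists of other genes were chosen with earlier results of these data known. Groups came from the labels. Within each line, 15 libraries entered one edgeR 4.0.16 quasi-likelihood fit (R 4.3.3) with TMM scaling, a filter on low counts that left 14810 to 16106 genes, and Benjamini-Hochberg adjustment over all of them at 0.05. Across lines, counts were summed per line and arm and fitted with a term for line over the 11877 genes with at least 1 CPM in 3 libraries of every line. Whether an effect differed between lines was tested with an F test over 90 libraries and 19655 genes, and 3 of its 4 comparisons were added after seeing the data. The scripts were tested on simulated data. Folds against a group at 0 used 3 counts over the group as a floor. From each list, at most 3 genes per comparison are named, those called across lines with the same sign in 6 of 6 lines and the largest change, and likeness names the 3 genes with the highest correlation, of which 1 is not reported here. Alternatives were DESeq2 1.42.0, RLE scaling, no filter, only the 2 arms compared, a replicate block, and leaving out libraries or lines.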

Additional observations from a re-analysis of the deposited data

Results flagged for a closer look

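In the 2 comparisons below, 3 members rose in 1 line and fell in another by at least 1 on the log2 scale, with libraries that did not overlap. Members with smaller opposite changes, or with overlapping libraries such as PLAU in RT112 at 7 days, are not listed here. Passing the edgeR F test of a difference between lines was also part of the choice. That test used the same libraries and was added for these comparisons after seeing the data. Its p-values below are therefore no independent support for the differences listed. Under THZ1, MMP1 rose in A375 and fell in RT112, and the edgeR F test of a difference between lines gave an adjusted p of 7.07e-17. Under THZ1, CEMIP rose in PC9 and fell in A375 and A549 (edgeR F test, adjusted p = 2.72e-25). Between 48 h and 7 days of targeted drug, SERPINB2 rose in PC9 and fell in N87 (edgeR F test, adjusted p = 2.47e-06). Between the same times, CEMIP rose in H3122 and fell in A375 (edgeR F test, adjusted p = 5.52e-16), where the call in A375 was lost without the vemurafenib library labelled Lung (-1.06 on the log2 scale). Drug, dose and line change together, so their parts in these differences cannot be told apart.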

How the results depend on the processing

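Of the counts of called genes recomputed under the alternatives, 930 stayed within 1.5 times their value and 16 did not. Of the log2 changes of members, 1827 kept their side of the threshold or, where no test was given, stayed within the spread. A change of sign in a value that was not called was counted among these. A further 55 passed the threshold newly in the same direction, 54 no longer passed, and 3 passed newly with the opposite sign. The 15 without a test that moved by more than the spread include changes of sign. With only the 2 arms compared, 10 members in place of 6 rose in the combination against THZ1. DESeq2 called 4 genes of the other lists lower under THZ1 in place of 1, and 1 higher in the combination against the targeted drug in place of 0. Without the libraries that stand apart, 6 members in place of 3 differed between lines in the latter comparison. With 1 line left out, the genes of the lists that rose in the combination against THZ1 ranged from 1 to 6 and those that fell from 0 to 6. Falls under THZ1 ranged from 0 to 1, and rises in the combination against the targeted drug from 0 to 1. The cause was not tested. The log2 change of PLAUR in RT112 between the combination and BGJ398 was 2.05 without the libraries that stand apart, and ranged from -0.50 to 2.26 with 1 library left out. That of PLAUR in N87 between 48 h and 7 days ranged from -0.48 to 0.41. Leaving out 1 library gave 5 to 7 rises and 15 falls for the combination against THZ1, beside 6 and 15.

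Same-numbered libraries correlated in their deviations by -0.101 to 0.137 outside RT112 and by -0.015 to 0.281 in RT112, and 0 of 8 comparisons with 3 or more shared numbers had every value above 0.1, so the numbers were not taken to pair samples. With the replicate block, 7 pairs rose and 16 fell for the combination against THZ1, 9 and 13 for THZ1 against DMSO, 9 and 10 for the combination against the targeted drug, and 10 and 8 for 7 days against 48 h. Other scalings moved the median of all genes by at most 0.03 on the log2 scale. Depth limits the tests of MMP9, MMP10 and HAS2, which had few counts per library in most lines.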
